A study of Homo sapiens with 9 samples.

Results

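The glycolysis and hypoxia response genes are 43 genes taken by symbol from the 23619 genes measured by RNA sequencing in RKO, a human colorectal carcinoma cell line. Glycolysis and glucose transport genes make up 24 of them, and genes of the response to low oxygen make up the other 19. The samples were 2 of parental RKO cells, 2 DIP2C-/- clones (E3 and C10) and 5 DIP2C+/- clones (A6-C9, A9-A12, F6-A7, G1-A5 and H9-A4), all grown for 48 h, with no treatment named in the labels. DIP2C codes for a disco-interacting protein family member, and the comparison of the clones with parental cells asked how its loss affected gene expression. The clones had been made by targeting exon 9 of DIP2C with a recombinant adeno-associated virus, with Geneticin selection and removal of the selection cassette by Cre. Both homozygous clones were derived from a heterozygous clone by further targeting, each clone grew from a single cell, and each clone is 1 library. The study describes fewer DIP2C+/- clones than the series holds, and the labels do not say which of them those are. No selected clone with intact DIP2C was included, so the targeting of DIP2C and the derivation of a clone cannot be told apart here. The labels do not say whether the 2 parental samples were separate cultures, and p-values measure only the spread between these samples.

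Glycolysis splits glucose into pyruvate in the cytosol, and many tumour cells run it at a high rate and turn the pyruvate into lactate even when oxygen is present. The response to low oxygen is led by the hypoxia-inducible factors (HIFs), in which an oxygen-sensitive alpha subunit, HIF1A or EPAS1, pairs with the stable subunit ARNT. Prolyl hydroxylases of the EGLN family mark the alpha subunits for destruction when oxygen is present, so that HIF activity is set mainly at the level of the protein. HIFs bind a short DNA core and raise transcription of glucose transporters, glycolytic enzymes and genes for pH control, mitophagy and collagen synthesis.

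The deposited counts summed to 14772593 to 21486483 per sample, at which 3 counts correspond to 0.14 to 0.203 CPM, counts scaled to the size of the library, the unit used for levels below. DIP2C stood at 61.0 and 70.9 CPM in the parental samples, at 17.4 and 22.8 CPM in the DIP2C-/- clones and at 33.6 to 56.3 CPM in the DIP2C+/- clones. The highest DIP2C+/- value belonged to clone H9-A4, whose log2 CPM lay 0.22 below the parental mean, the same size as the gap of 0.22 between the parental samples. Over all genes the profile of H9-A4 also lay nearer to parental cells (mean Pearson r of 0.974 with the parental samples and 0.95 with the other 6 clones) than that of any other clone (0.956 to 0.966 with the parental samples and 0.971 to 0.977 with the rest of the 6). Its label was taken as given. Because H9-A4 was singled out from these same data, p-values of fits that leave it out do not allow for that choice. Counts of calls, and 1 fitted change of each of the 10 members called in any contrast, are therefore given for all 9 samples and with H9-A4 left out, and other fitted changes without it unless stated. Of 12 colorectal epithelial markers only KRT8, KRT18 and CDX2 exceeded 1 CPM in every sample, and 7, KRT20 and CDH1 among them, stayed under 1 CPM throughout. The leukocyte markers PTPRC, CD3E, CD14 and FCER1G were under 1 CPM in every sample, and summed endothelial and fibroblast markers did not exceed 7.54 CPM. One gene of the leukocyte list, CD68, which codes for a lysosomal membrane protein, stood at 85.9 and 86.1 CPM in parental cells, 16.2 CPM in H9-A4 and 465 to 674 CPM in the other 6 clones, and its part in the results below was not tested.

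In the 6 clones other than H9-A4, the glucose transporter gene SLC2A3 and GAPDH were lower than in parental cells, PKM, ALDOC and HK1 were higher, and the 19 glycolysis genes that edgeR called in no contrast stayed within 2-fold of the parental mean in every clone. Among the hypoxia genes BHLHE40 was higher and CA12, P4HA1 and BNIP3L were lower in those clones. In these bulk samples a lower level in every cell and fewer cells that express a gene cannot be told apart. Of the 43 genes, 41 passed the filter on low counts and 2, BNIP3 and EGLN3, did not. With all 9 samples, 0 of the 41 had a Benjamini-Hochberg adjusted p under 0.05 in edgeR's quasi-likelihood test in any of 4 contrasts. These were DIP2C-/- against parental, where 0.00644% of all 15532 tested genes were called, DIP2C+/- against parental (0.0966%), all clones against parental (0.18%) and DIP2C+/- against DIP2C-/- (0%). At an unadjusted p under 0.05 the members numbered 7, 11, 7 and 6 in that order, and DESeq2's Wald test on the same 9 samples called 3, 0, 1 and 0. Shares of all genes are not given for either, so these counts do not show that members differed more often than other genes. The DESeq2 calls were CA12, P4HA1 and P4HA2, all lower in DIP2C-/- clones, and P4HA1, lower over all clones.

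With H9-A4 left out, 9 of the 41 were called over all clones against parental cells. ALDOC, BHLHE40, HK1 and PKM rose, 9.76% of the members where 4.48% of all genes rose, and BNIP3L, CA12, GAPDH, P4HA1 and SLC2A3 fell, 12.2% where 4.47% of all genes fell. In DIP2C+/- clones the same 4 genes rose (9.76%, against 4.37% of all genes) and BNIP3L, GAPDH and SLC2A3 fell (7.32%, against 3.58%). In DIP2C-/- clones 0 members rose in edgeR, where 2.32% of all genes did and where DESeq2's Wald test called BHLHE40, and CA12, GAPDH, P4HA2 and SLC2A3 fell, 9.76% where 2.44% of all genes fell. Between DIP2C+/- and DIP2C-/- clones 0 members and 0% of all genes were called. At an unadjusted p under 0.05 there were 9 members, for which the share of all genes is not given. The DIP2C-/- and DIP2C+/- contrasts share their 2 parental samples, so their calls are not independent. The fits also treat the clones as independent, although both DIP2C-/- clones were derived from the same heterozygous clone. The biological coefficient of variation across genes was 0.297 with all 9 samples and 0.242 without H9-A4. The plot of fitted changes shows what leaving out this clone did to the size and to the standard error of each of the 10 members called in any contrast.

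**Figure D1:**
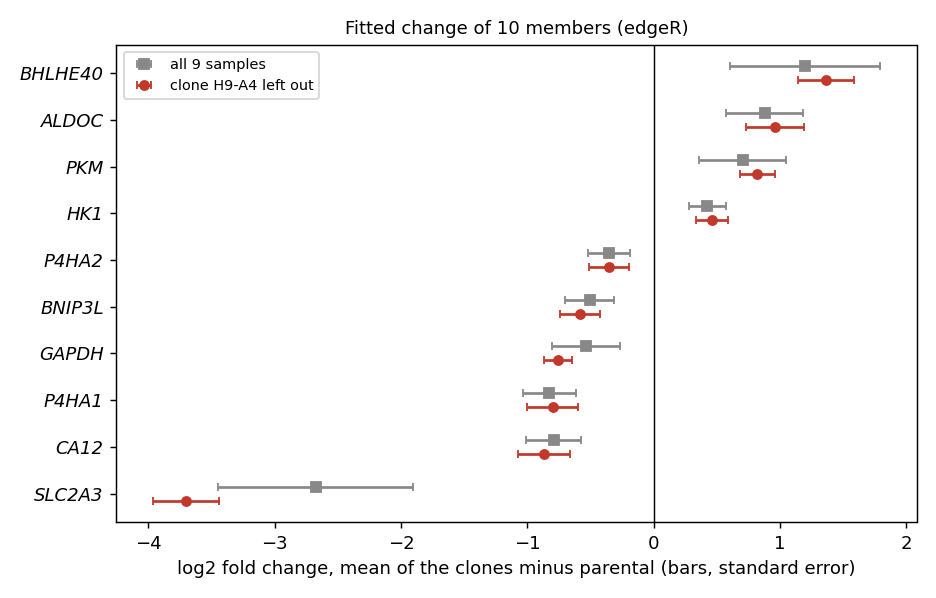
Log2 fold change of the clones against parental RKO for the 10 members called in any contrast, fitted with all 9 samples (grey squares) and without clone H9-A4 (red circles), with bars of 1 standard error on each side. SLC2A3 moved from -2.68 to -3.70, and the standard error of PKM narrowed from 0.34 to 0.14.

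The start regions of 3 members that rose and 3 that fell with H9-A4 left out are shown together because HIF binds a short core next to many of its target genes. The core was searched as ACGTG or GCGTG on both strands, in the 250 bases before each transcript start in RefSeq's promoters for GRCh38.p14. Where a symbol had several promoters, the first in the table was taken. The letters CACGTG hold ACGTG on both strands and count as 2 matches. Promoters were found for 39 of the 43 symbols, and SLC2A3, SLC16A1, NDRG1 and BNIP3L had no entry. The core was present in 13 of 22 glycolysis promoters (59.1%) and in 14 of 17 hypoxia promoters (82.4%), where 55.8% of the promoters of all tested genes and 43.1% of all promoters in the table held it. Median GC content was 69% in the glycolysis promoters, 68.4% in the hypoxia promoters, 64.4% in those of all tested genes and 58% in the whole table. In the sequences, written 5′ to 3′ on the strand of the gene, capitals mark each match.
GAPDH (fell, chr12:6535014-6535263, plus strand): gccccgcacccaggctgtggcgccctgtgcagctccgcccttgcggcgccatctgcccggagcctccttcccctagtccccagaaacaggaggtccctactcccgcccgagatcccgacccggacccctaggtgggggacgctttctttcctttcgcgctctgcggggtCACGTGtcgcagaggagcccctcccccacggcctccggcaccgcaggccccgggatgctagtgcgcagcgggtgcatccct
P4HA1 (fell, chr10:73096867-73097116, minus strand): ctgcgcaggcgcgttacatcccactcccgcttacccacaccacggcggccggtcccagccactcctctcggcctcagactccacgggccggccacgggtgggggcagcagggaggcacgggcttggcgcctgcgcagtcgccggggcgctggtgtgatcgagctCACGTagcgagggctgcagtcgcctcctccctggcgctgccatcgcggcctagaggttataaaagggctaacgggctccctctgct
CA12 (fell, chr15:63381847-63382096, minus strand): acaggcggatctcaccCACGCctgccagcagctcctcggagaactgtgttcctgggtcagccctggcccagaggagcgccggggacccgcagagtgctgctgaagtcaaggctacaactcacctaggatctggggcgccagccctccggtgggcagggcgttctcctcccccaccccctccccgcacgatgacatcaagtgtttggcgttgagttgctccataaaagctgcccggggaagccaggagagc
ALDOC (rose, chr17:28576896-28577145, minus strand): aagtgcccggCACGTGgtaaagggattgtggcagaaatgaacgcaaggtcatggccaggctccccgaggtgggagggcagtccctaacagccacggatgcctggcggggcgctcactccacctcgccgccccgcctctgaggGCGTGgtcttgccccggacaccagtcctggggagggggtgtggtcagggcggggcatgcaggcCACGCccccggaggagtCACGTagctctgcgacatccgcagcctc
BHLHE40 (rose, chr3:4979187-4979436, plus strand): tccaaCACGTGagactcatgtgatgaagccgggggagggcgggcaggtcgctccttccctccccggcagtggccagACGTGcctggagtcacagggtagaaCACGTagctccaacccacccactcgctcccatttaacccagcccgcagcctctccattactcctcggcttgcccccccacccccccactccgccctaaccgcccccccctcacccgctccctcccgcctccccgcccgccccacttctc
PKM (rose, chr15:72231191-72231440, minus strand): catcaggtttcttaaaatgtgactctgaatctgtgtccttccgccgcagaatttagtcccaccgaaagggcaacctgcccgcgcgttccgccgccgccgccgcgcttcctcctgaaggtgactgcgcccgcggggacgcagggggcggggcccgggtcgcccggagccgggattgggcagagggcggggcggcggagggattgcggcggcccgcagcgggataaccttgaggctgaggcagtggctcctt
The number of matches was 5 in ALDOC and 4 in BHLHE40, which rose, 2 overlapping ones in GAPDH and 1 each in P4HA1 and CA12, which fell, and 0 in PKM, which rose. Among called members not shown, HK1, which rose, had 0 in the first of its promoters. P4HA2, which fell in DIP2C-/- clones, also had 0. A match is a description of the letters in this window, and their absence says nothing of binding elsewhere.

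Glucose enters the cell through facilitative transporters, of which SLC2A1 (GLUT1) is the widespread form and SLC2A3 (GLUT3) a form of high affinity. SLC2A3 (GRCh37 chr12:8071826-8171603, minus strand) was measured at 442 and 430 CPM in parental cells, at 19.0 CPM in E3 and 36.7 CPM in C10, and at 19.4 CPM in F6-A7, 43.3 CPM in A9-A12, 42.1 CPM in G1-A5, 42.1 CPM in A6-C9 and 342 CPM in H9-A4. All 7 clones lay below both parental samples, 6 of them 10.1 to 22.9-fold below the parental mean and H9-A4 by 0.35 on the log2 scale. Without H9-A4 the fitted log2 fold change over the clones was -3.70 ± 0.26 (SE, adjusted p = 1.15e-05, edgeR), or 13.0-fold lower, whereas with all 9 samples it was -2.68 ± 0.77 (adjusted p = 0.268). The plain mean of the log2 differences of the 7 clones was -3.28. The neighbouring and closely similar SLC2A14, with which reads could be shared, stood at 0.0511 to 0.627 CPM in all samples.

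SLC2A1 was called in no contrast. Its level was 125 and 136 CPM in parental cells, 129 to 178 CPM in the 6 clones and 113 CPM in H9-A4, and the change over the clones was 0.21 ± 0.14 without H9-A4 (adjusted p = 0.407, edgeR). Per kilobase of transcript, the ratio of SLC2A3 to SLC2A1 was 3.12 and 2.81 in parental cells and 2.68 in H9-A4. In the other 6 clones this ratio was 0.111 to 0.289, so that SLC2A1 was the more abundant transcript there.

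**Figure D2:**
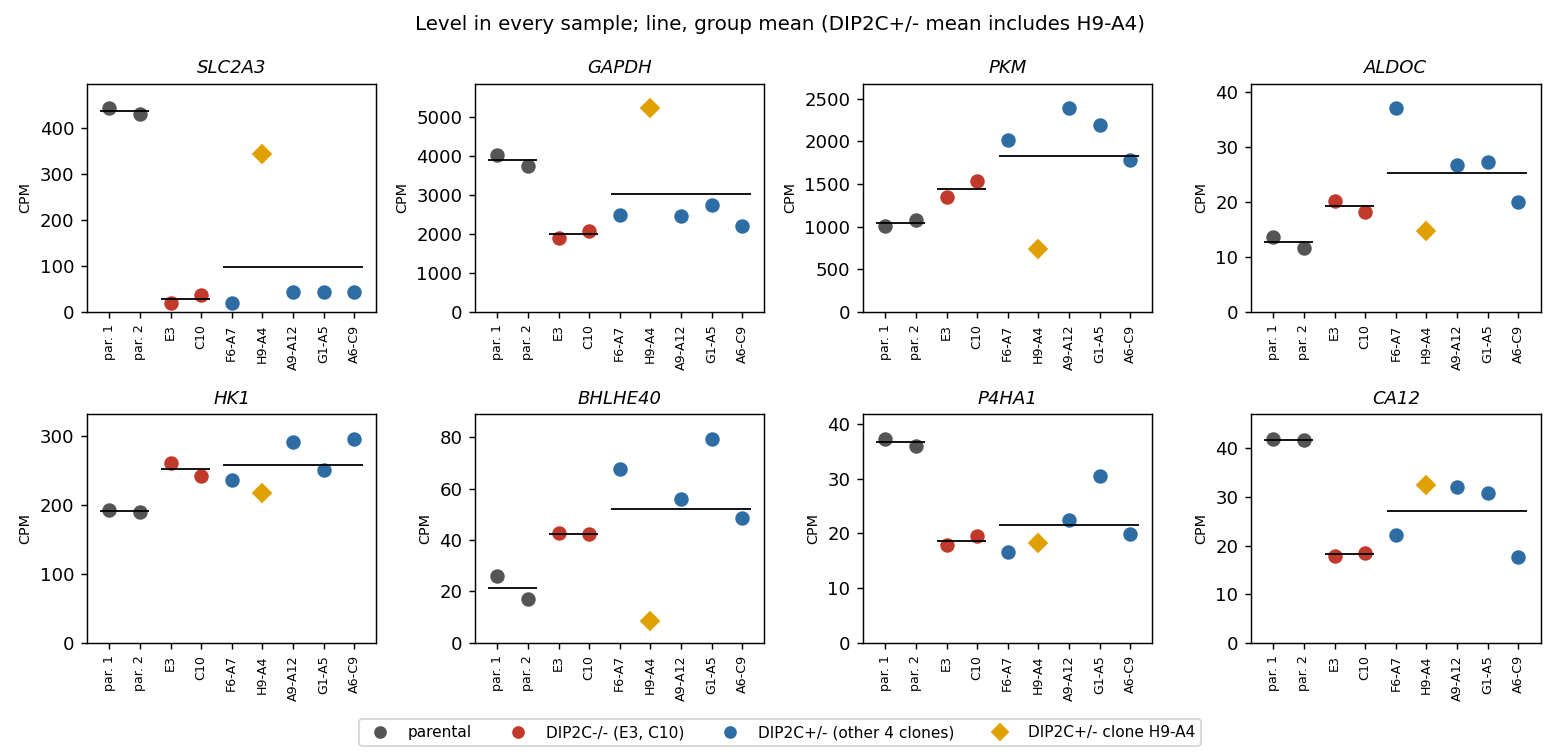
Level in CPM on linear axes from 0 of 8 members in each of the 9 samples, 1 point per sample, with a line at the mean of each group. Clone H9-A4 lies nearest to the parental samples for SLC2A3 and ALDOC, beyond them for GAPDH, PKM and BHLHE40, and with the other clones for P4HA1.

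Hexokinases trap glucose in the cell as glucose 6-phosphate, and HK1 and HK2 are the main forms in most tumour cells. HK1 (chr10:71029740-71161640) stood at 193 and 190 CPM in parental cells, 260 CPM in E3, 243 CPM in C10, 236 CPM in F6-A7, 218 CPM in H9-A4, 291 CPM in A9-A12, 251 CPM in G1-A5 and 296 CPM in A6-C9. Every clone exceeded both parental samples, and the rise without H9-A4 was 0.46 ± 0.13 on the log2 scale (adjusted p = 0.0477, edgeR), or 1.38-fold. It was 0.42 ± 0.15 with all 9 samples (adjusted p = 0.313). The call was lost with scaling by library size and when A6-C9 was left out as well. HK2 was 196 and 210 CPM in parental cells, 217 to 310 CPM in the 6 clones and 194 CPM in H9-A4. Its change of 0.39 ± 0.14 without H9-A4 did not pass the adjusted threshold (adjusted p = 0.123).

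The next steps isomerise and phosphorylate the sugar and split it into 2 triose phosphates. GPI, which makes fructose 6-phosphate, ranged from 877 to 1021 CPM in the clones and was 867 and 860 CPM in parental cells. PFKL and PFKM, subunits of the committed phosphofructokinase step, differed from the parental mean by at most 0.55 on the log2 scale in any clone. TPI1, which interconverts the trioses, was 651 and 787 CPM in parental cells and 619 to 853 CPM in the clones, so the groups overlapped.

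Aldolase cleaves fructose 1,6-bisphosphate, with ALDOA as the common form and ALDOC as the form best known from brain. ALDOC (chr17:26900133-26903966, minus strand) was 13.7 and 11.6 CPM in parental cells, 20.2 CPM in E3, 18.1 CPM in C10, 37.04 CPM in F6-A7, 14.7 CPM in H9-A4, 26.8 CPM in A9-A12, 27.3 CPM in G1-A5 and 19.96 CPM in A6-C9. All clones lay above both parental samples, with H9-A4 the lowest of them, and without it the log2 fold change was 0.96 ± 0.23 (adjusted p = 0.0251, edgeR), against 0.88 ± 0.31 with it (adjusted p = 0.313). ALDOA, 895 and 938 CPM in parental cells and 976 to 1199 CPM in the clones, was also higher in every clone, by a change of 0.23 ± 0.11 that was not called (adjusted p = 0.24 without H9-A4). ALDOA remained the main form: its ratio to ALDOC per kilobase was 64.3 and 79.3 in parental cells, 66.6 in H9-A4 and 30.4 to 54.4 in the other 6 clones.

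GAPDH, which oxidises glyceraldehyde 3-phosphate and is often used as a reference gene, was the most abundant parental member. GAPDH (chr12:6643678-6647540) stood at 4030 and 3752 CPM in parental cells, 1906 CPM in E3, 2082 CPM in C10, 2485 CPM in F6-A7, 5237 CPM in H9-A4, 2457 CPM in A9-A12, 2754 CPM in G1-A5 and 2202 CPM in A6-C9. The other 6 clones lay 1.41 to 2.04-fold below the parental mean, whereas H9-A4 was above both parental samples. Without H9-A4 the fitted log2 fold change was -0.76 ± 0.11 over the clones (adjusted p = 0.00182, edgeR), -0.96 ± 0.14 in DIP2C-/- clones (adjusted p = 0.00349) and -0.65 ± 0.12 in DIP2C+/- clones (adjusted p = 0.0075). With all 9 samples the change over the clones was -0.53 ± 0.27 (adjusted p = 0.417). GAPDH has many processed pseudogenes in the genome, and how reads shared with them were counted is not given in the sources used here, which holds for several other glycolytic genes too.

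Among the members nearest to GAPDH on chromosome 12, SLC2A3 was lower than the parental mean in all 7 clones. ENO2, like GAPDH, was lower in the 6 clones other than H9-A4. Its differences there, -0.377 to -0.072 on the log2 scale, were smaller than the gap of 0.549 between the parental samples. TPI1 lay on both sides of the parental mean. LDHB, farther along the chromosome at 21788276-21910791, was above the parental mean in every clone but A9-A12. TPI1 lies 329 kb and ENO2 375 kb beyond the end of GAPDH, and SLC2A3 lies 1424 kb beyond it. ENO2, the neuronal form of enolase, was 44.5 and 65.2 CPM in parental cells, 41.4 to 51.2 CPM in the 6 clones and 90.2 CPM in H9-A4. TPI1, which lies between GAPDH and ENO2, differed from the parental mean by at most 0.25 on the log2 scale in any clone.

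PGK1, the first step that makes ATP, was 418 and 423 CPM in parental cells and 454 to 594 CPM in the clones, all of them above both parental samples. Its change without H9-A4 was 0.33 ± 0.12 and was not called (adjusted p = 0.129, edgeR). The ratio of GAPDH to PGK1 per kilobase was 36.1 and 33.2 in parental cells, 43.2 in H9-A4 and 14.2 to 19.7 in the other 6 clones. PGAM1, the phosphoglycerate mutase, overlapped between groups at 546 and 629 CPM in parental cells and 493 to 735 CPM in the clones.

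Enolase makes phosphoenolpyruvate, and its common form ENO1 stood at 2425 and 2618 CPM in parental cells, 2535 CPM in H9-A4 and 2814 to 3436 CPM in the other 6 clones. The change of ENO1 without H9-A4 was 0.30 ± 0.10 (adjusted p = 0.0995, edgeR), and DESeq2's Wald test without H9-A4 did call it higher. ENO1 to ENO2 ratios per kilobase were 70.2 and 51.7 in parental cells, 36.2 in H9-A4 and 81.2 to 101 in the other 6 clones.

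PKM, whose pyruvate kinase closes the pathway, was 1012 and 1082 CPM in parental cells, 1346 CPM in E3, 1536 CPM in C10, 2022 CPM in F6-A7, 734 CPM in H9-A4, 2391 CPM in A9-A12, 2198 CPM in G1-A5 and 1777 CPM in A6-C9. The 6 clones were 1.29 to 2.28 times the parental mean, while H9-A4 lay below both parental samples. Without H9-A4 the change of PKM (chr15:72491370-72524160, minus strand) was 0.82 ± 0.14 over the clones (adjusted p = 0.00379, edgeR) and 1.00 ± 0.14 in DIP2C+/- clones (adjusted p = 0.00191). In DIP2C-/- clones it was 0.46 ± 0.16, which was not called (adjusted p = 0.142). With all 9 samples the change over the clones was 0.70 ± 0.34 (adjusted p = 0.398). The files give 1 value per gene, so the M1 and M2 splice forms of PKM could not be told apart.

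Summed over the 14 genes of glycolytic enzymes, the level was 11610 and 11910 CPM in parental cells and 10480 to 13110 CPM in the clones, so that the groups overlapped. GAPDH made up 34.7% and 31.5% of this sum in parental cells, 40.0% in H9-A4 and 17.4% to 21.01% in the other 6 clones. PKM made up 8.71% and 9.08% in parental cells, 5.62% in H9-A4 and 12.8% to 18.7% in the other 6. Without GAPDH the sum was 7580 and 8163 CPM in parental cells, 7845 CPM in H9-A4 and 8577 to 10430 CPM in the other 6 clones. The GAPDH and PKM shares of the 6 clones thus did not overlap with those of the parental samples, whereas the sums of all 14 genes did. CPM are shares of all counts and do not give the amount of RNA per cell.

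**Figure D3:**
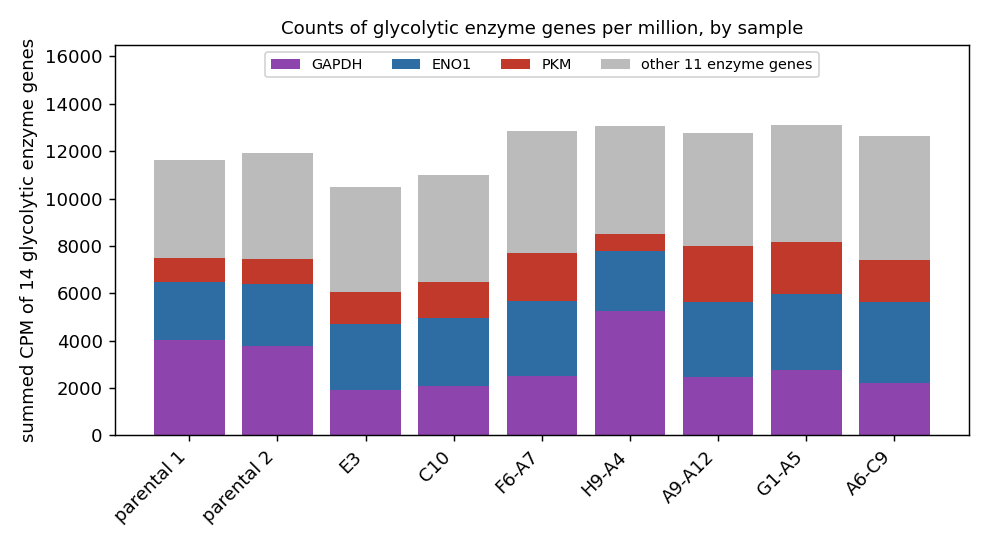
Summed CPM of the 14 glycolytic enzyme genes in each sample as stacked bars from 0, divided into GAPDH, ENO1, PKM and the other 11 genes. The bars reach 10480 to 13110 CPM, and the GAPDH part is smaller in 6 clones than in the parental samples and larger in H9-A4.

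Lactate dehydrogenase turns pyruvate into lactate, with LDHA favouring lactate and LDHB the return to pyruvate. LDHA was 1193 and 1080 CPM in parental cells and 888 to 1253 CPM in the clones, and LDHB was 666 and 722 CPM against 635 to 867 CPM. Both ranges overlapped, and neither gene was called in any contrast. The lactate exporters SLC16A1 (MCT1) and SLC16A3 (MCT4) also overlapped between clones and parental cells, at 184 to 256 CPM against 224 and 286 CPM and at 106 to 157 CPM against 98.4 and 118 CPM.

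Pyruvate dehydrogenase kinases inhibit pyruvate dehydrogenase and so limit the conversion of pyruvate to acetyl-CoA in mitochondria. PDK1, a HIF target, was 100.5 and 91.6 CPM in parental cells and 58.7 to 86.5 CPM in the clones, below both parental samples in all 7. Its change of -0.31 ± 0.15 without H9-A4 was not called (adjusted p = 0.239, edgeR). PDK3 was 79.7 and 74.0 CPM in parental cells and 44.7 to 77.0 CPM in the clones, with a change of -0.33 ± 0.14 (adjusted p = 0.174 without H9-A4). In DIP2C+/- clones without H9-A4, DESeq2's Wald test and edgeR with library size scaling did call PDK3 lower. PFKFB3 and PFKFB4, which make the activator fructose 2,6-bisphosphate, were not called, and E3 was the lowest sample for PFKFB3 at 104 CPM against 150 to 190 CPM in the rest of the clones. The 19 glycolysis members that edgeR called in no contrast stayed within 2-fold of the parental mean in every clone, and their mean differences over the 6 clones ran from -0.35 for PFKFB4 to 0.39 for HK2.

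**Figure D4:**
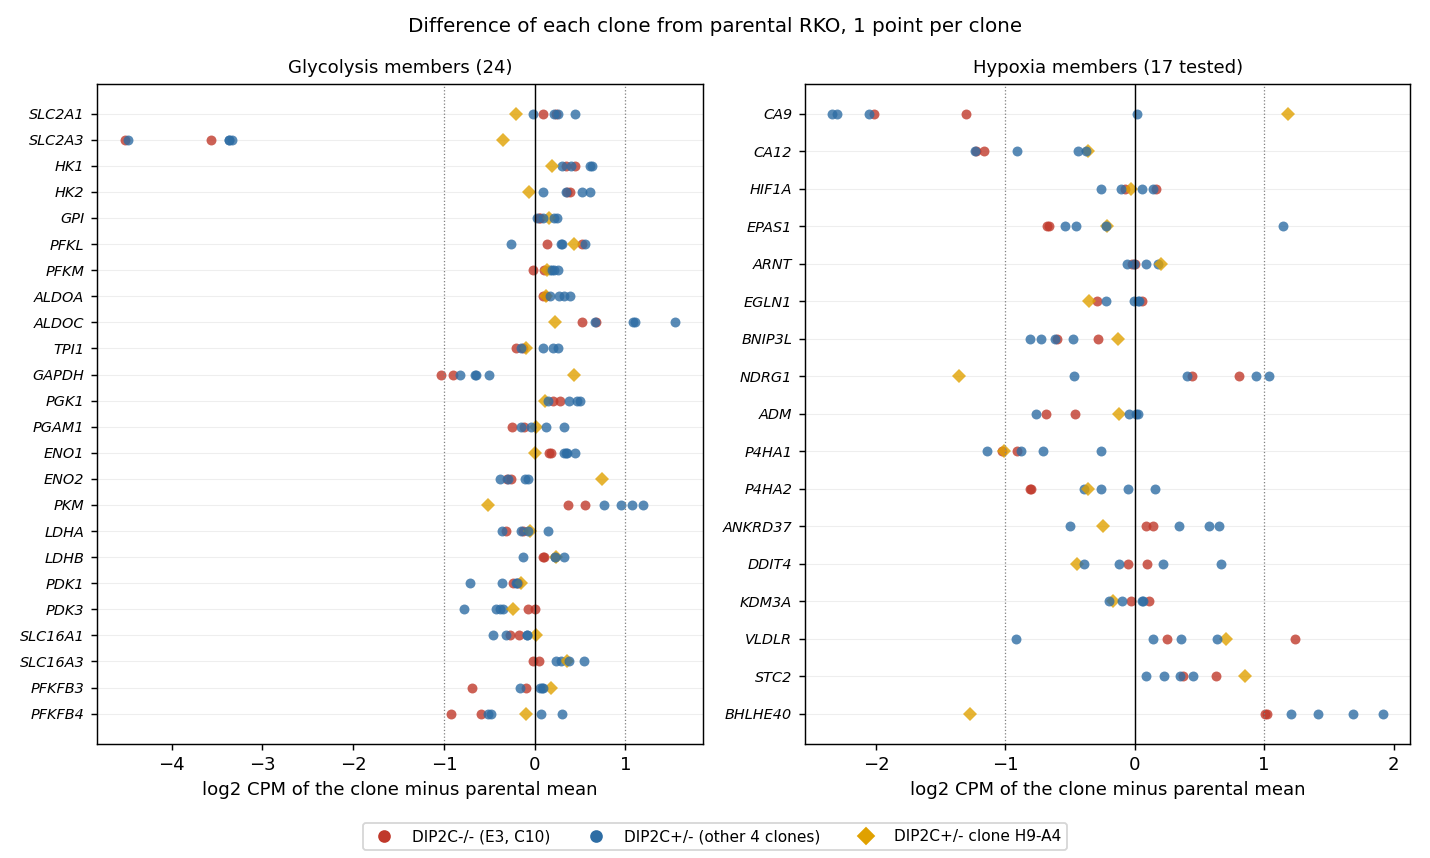
Difference in log2 CPM between each clone and the parental mean for the 24 glycolysis members and the 17 tested hypoxia members, 1 point per clone, with dotted lines at a 2-fold change. SLC2A3 lies between -4.52 and -3.33 in 6 clones, and most of the other glycolysis members lie between the dotted lines.

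The transcripts of the HIF system itself showed no call. HIF1A was 153 and 118 CPM in parental cells and 112 to 150 CPM in the clones, and its change was -0.02 ± 0.15 both with and without H9-A4 (adjusted p = 0.963 and 0.962, edgeR). ARNT was 56.7 and 45.1 CPM in parental cells and 48.4 to 58.2 CPM in the clones. EGLN1, the main prolyl hydroxylase gene, was 53.4 and 55.9 CPM against 42.7 to 56.6 CPM. These 3 genes overlapped between groups, and HIF protein was not measured.

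EPAS1, the gene of HIF-2 alpha, varied among clones. It stood at 18.8 and 17.1 CPM in parental cells, 11.2 CPM in E3, 11.3 CPM in C10, 39.7 CPM in F6-A7, 15.4 CPM in H9-A4, 15.3 CPM in A9-A12, 12.3 CPM in G1-A5 and 13.1 CPM in A6-C9. F6-A7 was the only clone above the parental samples, and the other 6 lay below both. The ratio of HIF1A to EPAS1 per kilobase was 10.6 and 9.02 in parental cells, 3.69 in F6-A7 and 10.6 to 17.3 in the other clones. EGLN3, the hydroxylase gene that is itself a HIF target, had 0.947 to 4.21 counts per sample, at or near the limit of 3 counts.

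Carbonic anhydrases on the cell surface help to keep the cell's pH under acid production, and CA9 is a classic marker of hypoxia. CA9 had 16.3 and 20.1 counts in parental cells, 5.26 in E3, 3.08 in C10, 16.0 in F6-A7, 41.2 in H9-A4, 2.36 in A9-A12, 2.59 in G1-A5 and 1.89 in A6-C9, which in CPM did not exceed 2.32 in any sample. CA9 was not called with or without H9-A4 (adjusted p = 0.752 and 0.213 over all clones, edgeR). CA12 (chr15:63613577-63674045, minus strand) was 42.0 and 41.7 CPM in parental cells, 17.8 CPM in E3, 18.6 CPM in C10, 22.2 CPM in F6-A7, 32.5 CPM in H9-A4, 32.1 CPM in A9-A12, 30.8 CPM in G1-A5 and 17.7 CPM in A6-C9. All 7 clones lay below both parental samples, and the change over the clones was -0.87 ± 0.21 without H9-A4 (adjusted p = 0.024) and -0.79 ± 0.22 with it (adjusted p = 0.267). In DIP2C-/- clones CA12 was 2.3-fold lower without H9-A4 in the fit (log2 fold change -1.20 ± 0.27, adjusted p = 0.0284).

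P4HA1 and P4HA2 code for the catalytic subunits of the enzyme that hydroxylates proline in collagen. P4HA1 (chr10:74766975-74856732, minus strand) was 37.3 and 36.0 CPM in parental cells, 17.9 CPM in E3, 19.4 CPM in C10, 16.6 CPM in F6-A7, 18.2 CPM in H9-A4, 22.4 CPM in A9-A12, 30.5 CPM in G1-A5 and 19.9 CPM in A6-C9. All 7 clones were lower than both parental samples, and here H9-A4 lay with the other clones. The change over the clones was -0.80 ± 0.20 without H9-A4 (adjusted p = 0.0311, edgeR) and -0.83 ± 0.21 with all 9 samples (adjusted p = 0.217), so the size was nearly the same and the adjusted p was not. The call was lost when A6-C9 was left out together with H9-A4.

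For P4HA2 the homozygous clones were the lowest samples. Its level was 44.8 and 48.5 CPM in parental cells, 26.7 and 26.6 CPM in the DIP2C-/- clones E3 and C10, and 35.5, 36.3, 45.03, 51.9 and 38.9 CPM in the DIP2C+/- clones. The change of DIP2C-/- clones against parental cells was -0.81 ± 0.20 without H9-A4 (adjusted p = 0.0428, edgeR) and -0.81 ± 0.21 with it (adjusted p = 0.308). Against DIP2C-/- clones the DIP2C+/- clones were higher by 0.68 ± 0.18 on the log2 scale, which did not pass the adjusted threshold (adjusted p = 0.679, unadjusted p = 0.00254).

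BNIP3 and BNIP3L code for mitochondrial proteins that mark mitochondria for removal. BNIP3, a strong HIF target in many cells, had at most 7.80 counts in any sample, including the parental ones. BNIP3L was 32.2 and 29.3 CPM in parental cells, 20.3 CPM in E3, 25.3 CPM in C10, 19.98 CPM in F6-A7, 28.1 CPM in H9-A4, 18.5 CPM in A9-A12, 22.0 CPM in G1-A5 and 17.5 CPM in A6-C9. Every clone lay below both parental samples, H9-A4 by the least, and the change was -0.58 ± 0.16 without H9-A4 (adjusted p = 0.0416, edgeR), a call that was lost when A6-C9 was left out as well. It was -0.51 ± 0.20 with all 9 samples (adjusted p = 0.327).

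BHLHE40, a transcriptional repressor of the circadian and hypoxia responses, was the hypoxia member that rose. BHLHE40 (chr3:5021122-5027008) stood at 25.8 and 16.97 CPM in parental cells, 42.6 CPM in E3, 42.2 CPM in C10, 67.6 CPM in F6-A7, 8.61 CPM in H9-A4, 55.9 CPM in A9-A12, 79.4 CPM in G1-A5 and 48.6 CPM in A6-C9. The 6 clones were 2.01 to 3.78 times the parental mean, and H9-A4 was the lowest of all samples. Without H9-A4 the change was 1.37 ± 0.22 over the clones (adjusted p = 0.00352, edgeR), 1.56 ± 0.23 in DIP2C+/- clones (adjusted p = 0.00265) and 0.99 ± 0.26 in DIP2C-/- clones (adjusted p = 0.0538). In DIP2C-/- clones BHLHE40 did pass the threshold with A6-C9 left out as well, with DESeq2 without H9-A4, and in a fit of only the compared groups. Over the clones the change with all 9 samples was 1.20 ± 0.60 (adjusted p = 0.408, edgeR).

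NDRG1, a stress-response gene induced by hypoxia, was 16.5 and 19.4 CPM in parental cells, 24.4 CPM in E3, 31.3 CPM in C10, 34.4 CPM in F6-A7, 6.91 CPM in H9-A4, 23.7 CPM in A9-A12, 12.9 CPM in G1-A5 and 36.8 CPM in A6-C9. Clones lay on both sides of the parental samples, and the change of 0.60 ± 0.33 without H9-A4 was not called (adjusted p = 0.319, edgeR). ADM, a vasodilator peptide gene, was 40.4 and 28.5 CPM in parental cells and 19.9 to 34.6 CPM in the clones. DDIT4, an inhibitor of mTOR signalling, and KDM3A, a histone demethylase, overlapped at 4.98 to 10.9 CPM against 6.17 and 7.57 CPM and at 36.1 to 44.6 CPM against 38.8 and 44.3 CPM. ANKRD37, the lipoprotein receptor gene VLDLR and the secreted stanniocalcin gene STC2 stayed at or under 1.89 CPM in every sample, and STC2 was the 1 member for which the parental samples differed from each other by more than 2-fold, where 7.9% of all genes did.

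Groups that do not overlap were counted for all 41 tested members. All 7 clones lay above both parental samples for 5 members (12.2%: HK1, GPI, ALDOA, ALDOC and PGK1), where 5.41% of all genes did, and below both for 5 (12.2%: SLC2A3, PDK1, CA12, BNIP3L and P4HA1), where 5.54% did. Without H9-A4, HK2, ENO1, PKM and BHLHE40 joined those above, for 22% of the members against 12.4% of all genes, and GAPDH joined those below, for 14.6% against 11.5%. Of the 24 glycolysis members alone 8 (33.3%) lay above in all 6 clones and 3 (12.5%) below.

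The median difference of the glycolysis members from parental cells was 0.13 on the log2 scale for the mean of the 7 clones and 0.13 for the mean of 6, where the median of all tested genes was 0 and -0.001. The 14 enzyme genes had a median of 0.24 in both cases. In single clones the median of the glycolysis members was 0.01 in E3, 0.03 in C10, 0.25 in F6-A7, 0.06 in H9-A4, 0.09 in A9-A12, 0.08 in G1-A5 and 0.22 in A6-C9. The hypoxia members had a median of -0.04 over 7 clones and -0.02 over 6, and from -0.26 in G1-A5 to 0.06 in F6-A7 in single clones. Members of each list thus lay on both sides of parental cells in every clone.

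A change of 2-fold or more from the parental mean was seen for 7 of the 41 tested members in E3, where 14.4% of all genes showed one. With the share of all genes in brackets, it was 4 of 41 in C10 (11.9%) and in H9-A4 (7.44%). It was 5 of 41 in A6-C9 (14%), A9-A12 (13.9%), G1-A5 (12%) and F6-A7 (14.1%). These counts are near the shares of all genes and do not set the members apart. SLC2A3 and BHLHE40 were among the members counted in all 6 clones other than H9-A4. In H9-A4 the 4 were BHLHE40, NDRG1 and P4HA1, all lower, and CA9, higher. Of the 10 members called in any contrast, H9-A4 differed from parental cells in the direction opposite to the mean of the other 6 clones for 3, GAPDH, PKM and BHLHE40, and in the same direction for 7.

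Between the genotypes, PKM was higher in DIP2C+/- than in DIP2C-/- clones by 0.54 ± 0.14 without H9-A4 (unadjusted p = 0.00283, adjusted p = 0.679, edgeR) and PDK3 was lower by -0.44 ± 0.15 (unadjusted p = 0.0115, adjusted p = 0.679). SLC2A3 differed by 0.40 ± 0.32 and HK1 by 0.09 ± 0.13 (adjusted p = 0.819 and 0.903). With all 9 samples the difference for SLC2A3 was 1.81 ± 1.01 (adjusted p = 0.889). These standard errors leave room for differences of about the size of several of the changes from parental cells, and 0 of 41 calls does not show that the genotypes were alike.

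Further genes of the same pathways were counted from lists that hold none of the 43. Of 39 further glycolysis genes 30 were tested, and with H9-A4 left out 2 rose (6.67%, against 4.48% of all genes) and 1 fell (3.33%, against 4.47%) over all clones, shares near those of all genes. BSG (basigin), the chaperone of the lactate exporters, was 511 and 499 CPM in parental cells and 712 to 915 CPM in the clones, H9-A4 highest, with a change of 0.55 ± 0.11 (adjusted p = 0.0111, edgeR). SLC2A10, another facilitative glucose transporter gene, rose by 1.41 ± 0.28 (adjusted p = 0.0108), from 5.01 and 4.86 CPM to 8.92 to 16.5 CPM, with H9-A4 at 3.001 CPM. PDP1, the phosphatase that reverses the pyruvate dehydrogenase kinases, fell by 1.68 on the log2 scale (SE 0.45, adjusted p = 0.0398), from 306 and 236 CPM to 40.6 to 203 CPM, with H9-A4 at 585 CPM. The change of PDP1 with all 9 samples was -0.92 ± 0.78 (adjusted p = 0.647).

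Of 33 further hypoxia genes, in a list chosen with earlier results of these data known, 29 were tested. Without H9-A4, over all clones, edgeR called 5 higher (17.2%, against 4.48% of all genes), ANGPTL4, GBE1, LOX and RIOK3 among them. It called 0 lower, against 4.47% of all genes, while DESeq2's Wald test called 1 lower over all clones and another in DIP2C-/- clones. ANGPTL4, a secreted inhibitor of lipoprotein lipase, was 5.51 and 5.27 CPM in parental cells, 19.2 to 149 CPM in the 6 clones and 1.58 CPM in H9-A4 (3.02 ± 0.74, adjusted p = 0.0286, edgeR). LOX, which crosslinks collagen, was 0.606 and 0.679 CPM in parental cells, 1.99 to 4.25 CPM in the 6 clones and 0.227 CPM in H9-A4 (2.203 ± 0.46, adjusted p = 0.0126). Among the 12 HIF pathway regulators that are not members 0 were called in either fit by edgeR. With all 9 samples edgeR called 0 of these further genes over all clones, with 3 of 30, 3 of 29 and 1 of 12 at an unadjusted p under 0.05, and DESeq2 called BSG alone. The shares of all genes at an unadjusted p under 0.05 and in DESeq2 are not given.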

How the data were processed

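RNA of 2 parental RKO samples, 2 DIP2C-/- and 5 DIP2C+/- clones had been sequenced on the Ion Proton system and aligned by the authors to hg19 with TopHat2 2.0.4, and gene expression quantified with Cufflinks, version 2.2.1 in the submitters' processing notes. Each deposited value is an estimated count, not always whole, for 1 of 23619 gene symbols, and how the authors scaled them is not given in the sources used here. In each sample 98.4% to 98.7% of low values (up to 20 reads) were within 0.02 reads of a whole multiple of 1 step of 0.711 to 1.11, which implies 17134301 to 24863858 reads. Strand handling and batches are not given in the sources used here.

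Values were rounded, filtered with filterByExpr (15532 genes kept, 15390 without H9-A4), scaled by TMM and fitted in edgeR 4.0.16 (R 4.3.3) with 1 coefficient per group. The quasi-likelihood test was adjusted by Benjamini-Hochberg over all tested genes. A gene was called at an adjusted p under 0.05. The contrast of all clones weighted the DIP2C-/- and DIP2C+/- coefficients by their numbers of clones. It is therefore not the mean of the log2 differences of single clones. The design had assumed whole counts. Differences of single clones were taken on log2 CPM (prior count 2) with no test. Within a group, chi-square per degree of freedom between samples was 16.5 to 97.0, so no sample was a copy of another within its group. It was 32.0 between the 2 parental samples and 16.5 between E3 and C10. The measure therefore cannot show whether 2 samples came from the same clone. Positions are from GENCODE on GRCh37 and promoters from RefSeq on GRCh38.p14. Levels per kilobase used the canonical transcript.

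The members, gene lists and marker lists were chosen with earlier results of these data known. Members were named in full if called in any contrast with or without H9-A4, if 2-fold or more from the parental mean in at least 3 clones, or if HIF subunits, hydroxylases or isozyme pairs, and the others by range. Of further genes, those called with the larger changes were named, at most 3 a direction and list. Results of some listed genes are not reported here. The alternatives were DESeq2 1.42.0 (Wald test and size factors), no filter, at least 10 counts in every sample, library size scaling, a prior count of 0.5, values divided by the step, only the compared groups, and each sample left out. DESeq2 and library size scaling without H9-A4 were alternatives chosen after seeing the data. The scripts were tested on simulated data.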

Additional observations from a re-analysis of the deposited data

Results flagged for a closer look

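Among the 5 DIP2C+/- clones, 6 of the 41 tested members had 1 clone far from the other 4 by Dixon's test on CPM, which flags about 1 group in 20 by chance. Clone H9-A4 was the high one for 3 of them. The share of all genes flagged by the same test is not given, so the count does not set the members apart from other genes. SLC2A3 was 342 CPM in H9-A4, and the nearest clone had 43.3 CPM. GAPDH was 5237 CPM in H9-A4, where the nearest clone had 2754 CPM. ENO2 was 90.2 CPM there, with the nearest clone at 51.2 CPM. Clone F6-A7 stood apart for EPAS1, at 39.7 CPM with the nearest clone at 15.4 CPM, and for ADM, at 19.9 CPM with the nearest at 31.2 CPM. LDHB was lowest in A9-A12, at 635 CPM, where the nearest clone had 808 CPM. Values of H9-A4 for SLC2A3, GAPDH and ENO2 were nearer to the parental samples than those of the other DIP2C+/- clones were, or beyond the parental samples.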

How the results depend on the processing

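The count of members called depended on clone H9-A4 and on the test. Leaving out each sample in turn gave 0 to 4 called members in DIP2C-/- clones, 0 to 7 in DIP2C+/- clones and 0 to 9 over all clones, and the highest of each came from leaving out H9-A4, where all 9 samples gave 0. DESeq2's Wald test gave 3 in DIP2C-/- clones and 1 over all clones, and a fit of only the compared groups, in which H9-A4 takes no part, gave 7 in DIP2C-/- clones. Without H9-A4 and A6-C9 the counts were 5, 5 and 6 in the same order, with DESeq2 and H9-A4 left out 6, 11 and 10, and with library size scaling and H9-A4 left out 5, 8 and 8. The share of all genes called is not given for these alternatives. Members above both parental samples in all clones numbered 5 to 9 over the samples left out (5 with all), and those below 5 to 10 (5 with all). The 9 came from leaving out H9-A4, and the 10 and an 8 above from leaving out parental sample 2. Leaving out H9-A4 also raised the shares of all genes, from 5.41% to 12.4% above and from 5.54% to 11.5% below. With other samples left out the shares of all genes are not given, so these counts do not set the members apart from other genes. Under scaling by library size the median log2 difference of all genes ran from -0.103 in G1-A5 to 0.068 in E3. With TMM it was -0.003 and 0.02 in these clones. Over all alternatives 106 counts and medians kept their value within the limits used and 18 moved. Of the fold changes of single members under the alternatives, 480 kept their direction and side of the threshold, 90 passed it where the fit of all 9 samples did not, and 0 reversed. No paired analysis was possible because the labels give the groups no shared replicate numbers. Genes under about 3 counts per sample, such as EGLN3, can hardly show a difference at this depth.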
